A study of Rattus norvegicus with 24 samples.

Results

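Choroid plexus RNA varied widely between arrays of left dorsal striatum from male Long Evans rats, and 12 arrays high in the choroid plexus transcript Ttr were compared here with 12 arrays low in it, out of 24 in all. The arrays were chosen by their own Ttr value, the log2 signal of the Ttr probe minus the array's 75th percentile (P75) of log2 signals. Within each treatment group the 4 arrays with the highest and the 4 with the lowest value formed the high and the low side. The Ttr values therefore chose the sides, and they are given below as a description without a test. The 3 groups each held 8 arrays of rats aged 80 to 90 days that had received 5 daily intraperitoneal injections. MDPV (methylenedioxypyrovalerone, a synthetic cathinone stimulant that blocks dopamine and noradrenaline reuptake) was given at 1 mg/kg. Saline rats received no MDPV, acute rats received MDPV at the last injection only, and chronic rats received it at all 5 injections. Rats were killed 24 h later and the brains frozen, and the striatum was dissected by hand. Total RNA was labelled with Cy3 and hybridised to one-colour Agilent arrays, 8 on each of 3 slides. The series design gives 6 animals per group, whereas each group had 8 arrays. In each group 4 arrays carried titles made of a letter and 0 or 1, with 6 letters in all, and what a letter marks is not stated. P-values therefore measure the spread between these arrays, part of which may be technical.

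The choroid plexus is a sheet of epithelium over a core of leaky vessels in the brain ventricles, and it secretes most of the cerebrospinal fluid. Its epithelial cells make transthyretin (Ttr), the carrier of thyroxine and a partner of retinol-binding protein, in very large amounts and secrete it into the fluid. They also hold ion and water transporters, folate and vitamin carriers, and factors that set their epithelial identity. The dorsal striatum borders the lateral ventricle, in which choroid plexus lies. Choroid plexus need not be the only source of the genes listed for it below. Of the 65 such genes on the array, 30 were well above background on all 24 arrays, those lowest in Ttr included. In such bulk RNA, fewer cells of a type and less RNA per cell cannot be told apart.

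Ttr was well above background on all 24 arrays, and its values ran from -5.62 to 6.28. In the saline group the low arrays had Ttr values of -4.37 (replicate 8), -2.14 (replicate 6), -2.04 (replicate 1) and 3.22 (replicate 2), and the high arrays 5.23 (replicate 7), 5.92 (replicate 5), 6.20 (replicate 4) and 6.28 (replicate 3). In the acute group the low values were -3.84 (replicate 3), -0.945 (replicate 1), 1.98 (replicate 4) and 2.02 (replicate 2), and the high values 2.48 (replicate 5), 3.71 (replicate 6), 4.95 (replicate 7) and 4.96 (replicate 8). In the chronic group the low values were -5.62 (replicate 3), -5.47 (replicate 2), -5.05 (replicate 1) and -4.46 (replicate 4), and the high values -3.99 (replicate 5), -1.88 (replicate 6), 4.96 (replicate 7) and 6.22 (replicate 8). The groups were thus split at different heights. The acute arrays on either side of the split, at 2.02 and 2.48, lay 0.46 apart, the chronic ones at -4.46 and -3.99 lay 0.47 apart, and the saline ones at 3.22 and 5.23 lay 2.02 apart. Over the whole series 3 high arrays lay below the highest low array and 7 low arrays above the lowest high array. Mean Ttr was 3.75 ± 3.35 (SD, n = 12) on the high arrays and -2.23 ± 3.15 (SD, n = 12) on the low arrays, a difference of 5.98 on the log2 scale.

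**Figure D1:**
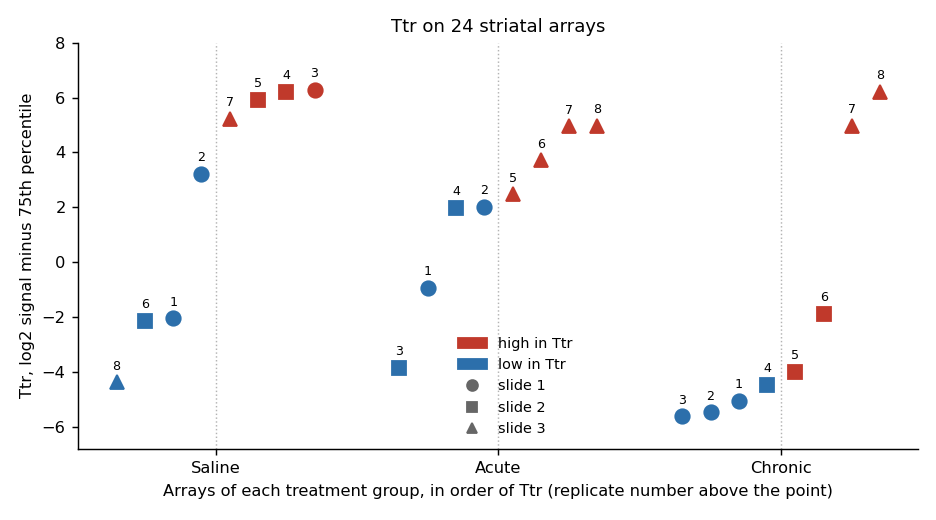
Ttr (log2 signal minus P75, vertical axis) on each of the 24 arrays, in order within each treatment group (horizontal axis), with the replicate number above each point. Colour gives the side and shape the slide. The chronic group splits between -4.46 and -3.99, the acute group between 2.02 and 2.48, and the saline group between 3.22 and 5.23.

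The Ttr probe lies at chr18:12413621-12413680 on the plus strand (rat build rn4, as the files give it) and was designed on the Ttr mRNA. The probe of Sostdc1 lies at chr6:55070308-55070367 on the plus strand, that of Folr1 at chr1:159315267-159315326 on the minus strand and that of Kcnj13 at chr9:86207003-86207062 on the minus strand. That of Prr32 is placed at chr14_random:1627209-1627268 on the plus strand, and not on chrX, where the later build puts its promoter (below). The 250 bases before the transcription start are shown for Ttr, by which the arrays were chosen, and for Kcnj13 and Prr32, which rose with it (below). They come from RefSeq's annotation of build GRCr8, at chr18:12218508-12218757 (plus strand) for Ttr, chr9:95518987-95519236 (minus strand) for Kcnj13 and chrX:128855835-128856084 (plus strand) for Prr32, and are written 5′ to 3′ toward the start site. Capitals mark a motif match.
Ttr: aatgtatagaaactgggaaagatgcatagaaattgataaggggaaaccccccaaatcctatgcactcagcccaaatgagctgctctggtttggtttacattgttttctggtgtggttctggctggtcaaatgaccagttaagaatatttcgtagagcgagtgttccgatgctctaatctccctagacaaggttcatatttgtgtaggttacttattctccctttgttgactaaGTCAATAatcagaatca
Kcnj13: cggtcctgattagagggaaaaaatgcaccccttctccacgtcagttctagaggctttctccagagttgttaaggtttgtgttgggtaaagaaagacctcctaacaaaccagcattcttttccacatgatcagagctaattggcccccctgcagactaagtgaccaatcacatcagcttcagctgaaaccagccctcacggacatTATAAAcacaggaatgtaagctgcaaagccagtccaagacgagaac
Prr32: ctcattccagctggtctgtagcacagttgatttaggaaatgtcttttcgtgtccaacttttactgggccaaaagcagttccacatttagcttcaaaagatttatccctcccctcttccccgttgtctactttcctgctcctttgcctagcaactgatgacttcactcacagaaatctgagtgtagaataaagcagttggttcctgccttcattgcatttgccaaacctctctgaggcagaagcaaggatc
The 5 motifs searched on both strands were TAATCC (the core bound by OTX homeodomain proteins), TGTTTAC and TATTGAC (forkhead cores), GTTGCC (an RFX core) and TATAAA (the TATA box). TATTGAC was added after the Ttr window had been read. The Ttr window held TATTGAC on the minus strand, which reads GTCAATA in the capitals, and the Kcnj13 window held TATAAA. The Prr32 window held none of the 5. TAATCC was found in 7 of 59 promoters of choroid plexus genes (11.9%) and in 6.34% of all 33469 promoters. TGTTTAC was found in 1.69% and 3.21%, TATTGAC in 3.39% and 1.28%, GTTGCC in 8.47% and 9.89%, and TATAAA in 15.3% and 12.9%. The 59 include the Ttr promoter, from which TATTGAC was taken, so its share there was partly fixed in advance. A match is a description of the letters and shows no binding.

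The sides were not evenly spread over the slides. Slide 1 held 1 high and 7 low arrays, slide 2 held 4 of each, and slide 3 held 7 high and 1 low. In the acute group all 4 high arrays were on slide 3 and all 4 low arrays on slides 1 and 2, so slide and side cannot be told apart there. Within a slide the sides could be set against each other in the saline group (slides 1, 2 and 3) and in the chronic group (slide 2). For 4 of the 6 letters the arrays fell on both sides, with Ttr 5.91 apart for letter E. The arrays of letter B were both on the high side and lay 8.10 apart in Ttr. The arrays of both sides overlapped in measures of quality. Between 50.7% and 71.3% of the spots were well above background on an array, no spot was saturated, and the signal over background ranged from 6.45 to 10.4. The share of spots well above background was 62.7% ± 6.44 (SD, n = 12) on the high and 63.0% ± 5.33 (SD, n = 12) on the low arrays. Of 7 such measures, none differed between the sides at an adjusted p under 0.05 in an exact two-sided permutation test within groups, the smallest unadjusted p being 0.126 (adjusted p = 0.524), for the external ERCC control probes. Those control probes had a mean of -5.73 on the high and -5.45 on the low arrays.

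The arrays carried the labelled tissue on both sides. Ppp1r1b (DARPP-32, a defining protein of striatal projection neurons) had values from 3.10 to 5.17, with a median of 4.39, on the high arrays and from 4.31 to 5.72, with a median of 4.66, on the low arrays. Both ranges lay well above the array's P75, and the lowest value was on saline replicate 4.

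Across 20897 genes other than Ttr, none passed an adjusted p of 0.05 in limma with treatment group as a block, 0% in the higher and 0% in the lower direction, and the smallest adjusted p was 0.115. At an unadjusted p under 0.05, 755 genes (3.61%) were higher and 1695 (8.11%) lower on the high arrays. The median difference of all genes was -0.05 on the log2 scale, and 37.8% of genes had a positive difference. The side accounted for a median of 4.77% of a gene's variance within groups, and the slide for 7.39%. The slide has more levels than the side and so takes a larger share by chance. These shares were not corrected for that and do not rank slide against side. The outcome depended on how arrays were weighted. With limma's array quality weights, 343 genes were higher and 676 lower at an adjusted p under 0.05.

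The defining choroid plexus markers had higher medians on the high arrays, with wide ranges and adjusted p-values above 0.05. Sostdc1, a secreted antagonist of BMP and Wnt signals, had values of -8.04, -2.59 and 0.79 (lowest, median and highest) on the high arrays and of -8.58, -7.68 and -4.29 on the low arrays. On 9 of the 12 high arrays it lay above every low array. It was well above background on 10 high and 2 low arrays, so most low values are at background. The fitted difference was 4.30 ± 0.79 (SE) on the log2 scale, with an adjusted p of 0.128 in limma. Each low array was also raised to its dimmest signal well above background where Sostdc1 lay under it. The mean of the high arrays was then 11.6-fold higher (3.54 on the log2 scale). High arrays at background kept their measured values, and this fold is no lower bound under another background correction. After another background correction (normexp with an offset, which compresses dim signals) and quantile normalization the difference was 2.44. Its difference was 6.14 in the saline, 2.89 in the acute and 3.88 in the chronic group, and in 2 of the 3 groups the sides did not overlap. In the acute group they barely parted, at -5.53 on the lowest high array (replicate 5) and -5.54 on the highest low array (replicate 4).

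Folr1, the folate receptor that carries folate across the choroid plexus, ran over -6.81, -3.17 and -0.22 on the high and -8.28, -5.31 and -3.13 on the low arrays. The ranges overlapped, with 6 high arrays above every low array, and the difference was 2.59 ± 0.67 (SE; adjusted p = 0.248, limma). Folr1 was well above background on 10 high and 9 low arrays. Kcnj13, the inward rectifier potassium channel Kir7.1 of the apical epithelial membrane, ran over -8.10, -4.21 and -1.12 on the high and -8.90, -7.09 and -5.16 on the low arrays. It lay above every low array on 8 high arrays and was well above background on 9 high arrays and 1 low array. Its difference was 2.76 ± 0.63 (SE; adjusted p = 0.197, limma), with 4.27 in the saline, 2.20 in the acute and 1.80 in the chronic group. Most of its low values were likewise at background. With low arrays raised as for Sostdc1 the fold was 4.49 (2.17 on the log2 scale), and the difference after normexp was 1.29. That of Folr1 after normexp was 1.66. With slide as a block the difference of Sostdc1 was 4.46 ± 1.06 (SE), that of Folr1 2.37 ± 0.88 (SE) and that of Kcnj13 2.58 ± 0.85 (SE), with adjusted p-values of 0.35, 0.397 and 0.361. On slides 1, 2 and 3 alone it was 4.74, 4.00 and 6.23 for Sostdc1, 3.91, 1.33 and 4.00 for Folr1, and 4.06, 1.42 and 2.81 for Kcnj13. Slide 3 alone sets 1 saline array against 1, and slide 1 alone 1 saline array against 2, so these are values of few arrays.

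Of 66 genes in 4 choroid plexus lists, 65 were on the array and 47 were bright enough to be tested. Of these 47, 35 were higher and 12 lower on the high arrays, 21 were higher at an unadjusted p under 0.05 and none was lower. None passed the adjusted threshold. Their median difference was 0.19, against -0.05 over all genes tested. With slide as a block the median was 0.19, and on slides 1, 2 and 3 alone it was 0.43, 0.07 and 0.22. It was 0.44 in the saline, 0.14 in the acute and 0.17 in the chronic group. The 47 were kept by a filter on brightness within a treatment group, which a gene could pass through its high arrays alone.

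Among the secreted proteins, 9 of 11 genes were higher, 7 of them at an unadjusted p under 0.05, with a median difference of 0.60. Col8a1 and Col9a3, collagen chains, differed by 1.45 ± 0.31 (SE) and 0.60 ± 0.13 (SE), both with an adjusted p of 0.130 in limma. Col9a3 ran over -1.71, -1.20 and -0.47 on the high arrays and -2.07, -1.66 and -1.51 on the low arrays, and 9 high arrays lay above every low array. Igfbp2 and Igf2, a binding protein and a growth factor of the insulin-like family, differed by 1.35 and 0.65 (adjusted p = 0.322 and 0.419). Enpp2 (autotaxin, which makes lysophosphatidic acid) differed by 0.70 ± 0.21 (SE; adjusted p = 0.310). Rbp4, the retinol-binding protein that Ttr partners in plasma, showed a difference of -0.07 ± 0.13 (SE; adjusted p = 0.811). It was named after its value had been seen.

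Of the ion and water transport genes, 8 of 12 were higher, 5 at an unadjusted p under 0.05, with a median of 0.21. Kcne2, a potassium channel subunit, was well above background on all 24 arrays and ran over -3.86, -2.65 and -0.54 on the high and -4.29, -3.85 and -3.57 on the low arrays. The low arrays lay close together and 9 high arrays were above all of them. The difference was 1.42 ± 0.30 (SE; adjusted p = 0.130, limma). Aqp1, the apical water channel, ran over -2.67, -1.60 and 0.59 on the high and -2.64, -2.14 and -1.76 on the low arrays, a difference of 0.83 ± 0.29 (SE; adjusted p = 0.322). Other probes of these genes gave 0.79 for Kcne2 and 2.11 for Aqp1. Trpv4, a cation channel opened by osmotic stimuli, differed by 1.22 ± 0.34 (SE; adjusted p = 0.310).

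The nutrient transporters and receptors stood nearer to the other genes. Of 16 tested, 11 were higher, 4 at an unadjusted p under 0.05, with a median difference of 0.05. Apart from Folr1, Steap1 (a metalloreductase) differed by 1.57 ± 0.43 (SE; adjusted p = 0.302) and Slc16a8 (the lactate carrier MCT3) by 0.83 ± 0.26 (SE; adjusted p = 0.310). Another Slc16a8 probe gave 0.05 (adjusted p = 0.954), so the probes disagree.

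Of the junction, cytoskeleton and transcription factor genes, 7 of 8 were higher, 5 at an unadjusted p under 0.05, with a median of 0.77. Msx1, a homeodomain factor of the dorsal midline, ran over -6.59, -3.57 and -0.66 on the high and -6.75, -5.10 and -3.64 on the low arrays, a difference of 1.63 ± 0.55 (SE; adjusted p = 0.322). Otx2, a homeodomain factor required for choroid plexus, ran over -7.57, -5.01 and -2.09 on the high and -6.94, -5.77 and -5.06 on the low arrays, a difference of 1.17 ± 0.47 (SE; adjusted p = 0.366). Its lowest value was on a high array. Calml4, a calmodulin-like protein, differed by 1.96 ± 0.61 (adjusted p = 0.310), Krt18, a keratin of simple epithelia, by 1.06 ± 0.39 (adjusted p = 0.344) and Cab39l, a partner of the kinase LKB1, by 0.48 ± 0.11 (adjusted p = 0.174), each with its SE.

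**Figure D2:**
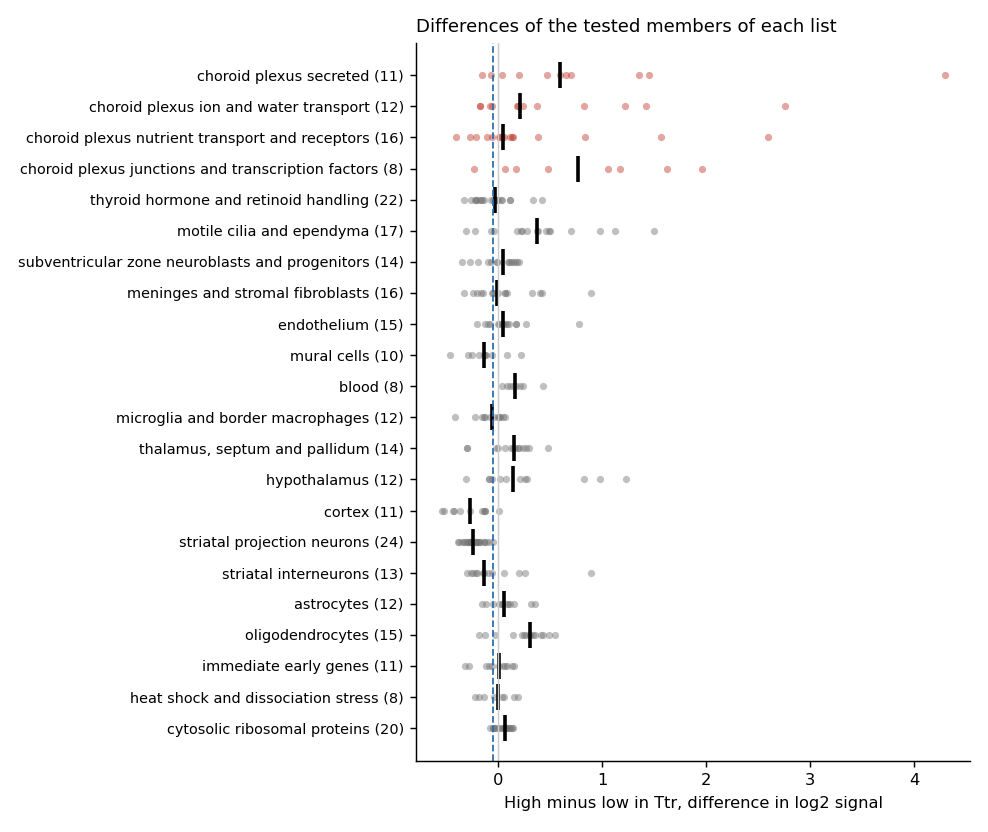
Difference between high and low arrays (log2, horizontal axis) for each tested member of 22 gene lists, 1 point per gene, with the number tested in brackets. Black bars give the list medians and the dashed line the median of all genes, -0.05. Choroid plexus genes (red) reach 4.30, and members of several lists lie on both sides of 0.

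The 18 choroid plexus genes too dim to be tested were read by whether a probe was well above background. Of these, 12 were detected on high arrays only, none on low arrays only, 4 on both sides and 2 (Lbp and Slc28a3) on no array. Of the 15264 other genes too dim to be tested, 17.5% were detected on high arrays only, 9.49% on low arrays only, 16.3% on both and 56.6% on none. Mfrp and the coagulation factor F5 were detected on 5 high arrays each. Kl (Klotho), the chloride channel protein Clic6, the bicarbonate cotransporter Slc4a5, the sulfate cotransporter Slc13a4 and the tight junction proteins Cldn1 and Cldn2 were each detected on 4. The prolactin receptor Prlr, the transcription factor Lmx1a and Tmem72 were detected on 3, and desmoplakin (Dsp) on 2. These detections came from few arrays. Saline replicate 5 detected 16 of the 18, chronic replicate 8 detected 14, saline replicate 4 detected 13, saline replicate 7 detected 6 and acute replicate 8 detected 5. Saline replicate 3, the array with the highest Ttr, detected 0 of the 18 and had the lowest share of spots well above background of all arrays, 50.7%.

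**Figure D3:**
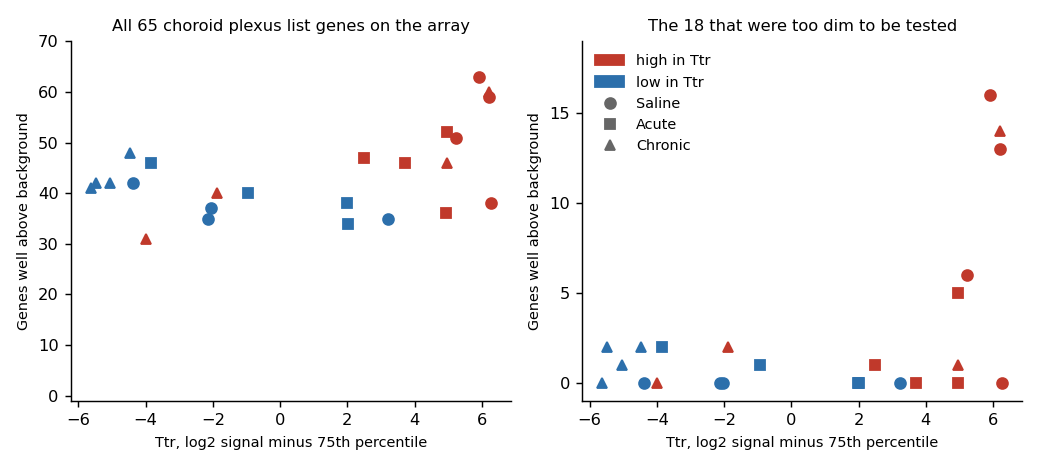
Number of choroid plexus list genes well above background on each array (vertical axes) against Ttr (log2 signal minus P75, horizontal axes), for all 65 genes on the array (left) and the 18 too dim to be tested (right). On the right, 3 arrays with Ttr near 6 detect 13 to 16 genes, while saline replicate 3, also near 6, detects 0.

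Treating Ttr as a continuous value in place of 2 sides gave calls. In this fit, also with group as a block, 20 genes rose with Ttr (0.0957% of those tested) and 5 fell (0.0239%) at an adjusted p under 0.05. The 20 that rose included 9 of the 47 choroid plexus genes. Sostdc1 rose by 0.70 ± 0.05 (SE) log2 units per log2 unit of Ttr, with an adjusted p of 6.27e-08 in limma. Folr1 rose by 0.44 ± 0.06 (SE; adjusted p = 0.00104), Kcnj13 by 0.45 ± 0.06 (SE; adjusted p = 0.000237) and Kcne2 by 0.23 ± 0.03 (SE; adjusted p = 0.00014). Kcnj13 passed the brightness filter through its high arrays alone, and for Sostdc1 the high saline arrays sufficed. The p-values of these genes are therefore not free of that selection. The other choroid plexus genes that rose were Msx1 (0.31, adjusted p = 0.00792), Calml4 (0.33, adjusted p = 0.0422), Cab39l (0.07, adjusted p = 0.0223), Col9a3 (0.08, adjusted p = 0.0238) and Aqp1 (0.15, adjusted p = 0.0468). All these slopes were below 1, so over the whole range of Ttr these genes spanned fewer log2 units than Ttr. The fits include the arrays with Ttr below 0, where Sostdc1 was never well above background. At the top the steps were larger than that of Ttr, in ranges chosen after the values were seen. From the range of 4 to 5.5 to that above 5.5, median Ttr went from 4.96 to 6.21. Median Sostdc1 went from -2.59 to 0.09, Folr1 from -3.17 to -0.91 and Kcne2 from -2.65 to -1.12. Cab39l and Col9a3 were not read in this way.

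The other 11 genes that rose were outside the choroid plexus lists. Prr32 (proline rich 32) rose by 0.44 ± 0.05 (SE; adjusted p = 0.00011, limma). A further transcript that the files describe as similar to Prr32, ENSRNOT00000074384, rose by 0.37 (adjusted p = 4.66e-05), and whether the pair of probes reads the same RNA was not tested. Cnmd (chondromodulin, a matrix glycoprotein that inhibits vessel growth) had a fitted slope of 0.47 ± 0.06 (SE; adjusted p = 0.000632). It was well above background on 8 high arrays and no low array, so it was kept through its high arrays alone and the size of its slope is set by background values. Prr32, Sostdc1 and Kcnj13 were at background on most low arrays as well, so the sizes of their slopes are limited in the same way. Prr32 was well above background on 9 high arrays and 1 low array. The p-values of Prr32 and Cnmd, here and in the comparison of sides, are thus not free of selection by brightness either. Kcne2 was well above background on all 24. The remaining named genes were Epn3, an endocytic adaptor (0.14, adjusted p = 0.0196), Scgb1c1, a secretoglobin (0.17, adjusted p = 0.0247), Nt5dc2 (0.10, adjusted p = 0.0367), Cox8b, a cytochrome c oxidase subunit (0.14, adjusted p = 0.0468), and Csrp2, a LIM domain protein (0.03, adjusted p = 0.0468). LOC103695197, RGD1564074 and the expressed sequence DV729108 also rose.

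Of the 5 that fell, Nr4a2 (Nurr1, an orphan nuclear receptor) and Efcab12 carry a gene symbol. Nr4a2 ran over -3.29, -1.07 and -0.05 on the high and -1.46, -0.32 and 0.21 on the low arrays, and its slope was -0.17 ± 0.04 (SE; adjusted p = 0.0468, limma). Efcab12 had a slope of -0.12 (adjusted p = 0.0324).

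The stability of these slopes differed between genes. When each of the 24 arrays was left out in turn, 10 of the 20 rising genes passed in all 24 fits and none of the 5 falling genes did. Sostdc1, Prr32, Kcne2, Kcnj13, Cnmd and Folr1 passed in all 24, Msx1 in 23, Col9a3 in 19, Calml4 in 10, Nr4a2 in 7 and Aqp1 in 5. The brightness filter was not redone in these fits. Passing in all 24 therefore does not remove the selection of Sostdc1, Prr32, Kcnj13 and Cnmd by brightness, mostly on high arrays. With slide as a further block, 13 genes rose (0.0622%) and 3 fell (0.0144%). Of the 20 rising genes 12 were among the 13, and none of the 5 falling genes was among the 3. The slope of Sostdc1 then had an adjusted p of 2.88e-06, and Aqp1 and Col9a3 no longer passed (adjusted p = 0.107 each). Without saline replicates 4 and 5 and chronic replicate 8 together, 8 genes rose and 1 fell, and 3 of the 8 were choroid plexus genes. Sostdc1 then rose by 0.59 (adjusted p = 2.13e-06) and Kcne2 by 0.16 (adjusted p = 0.00296), and Folr1 had a slope of 0.35 (adjusted p = 0.157).

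The shape of the relation to Ttr differed between genes. The following ranges of Ttr were chosen after the values had been seen and carry no test. On the 11 arrays with Ttr below 0, Sostdc1 was not well above background on any and lay between -8.58 and -7.09. On the 5 arrays with Ttr from 0 to 4 it lay between -6.34 and -4.18, on the 4 with Ttr from 4 to 5.5 between -2.69 and -2.31, and on the 4 above 5.5 between -1.29 and 0.79. Kcne2, which was above background throughout, stayed between -4.29 and -3.62 below 0, and between -2.88 and -2.42 at Ttr from 4 to 5.5. Aqp1, also above background throughout, had medians of -2.19, -2.23, -1.60 and 0.00 over the 4 ranges. On the 11 arrays below 0, Ttr spanned 4.67 log2 units, Kcne2 0.67 and Aqp1 0.90. Folr1 had medians of -5.69, -4.25, -3.17 and -0.91 and Msx1 of -5.48, -3.91, -3.57 and -1.30, higher in each range than in the one before.

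The 4 arrays highest in Ttr differed among themselves in the other genes. Their Ttr values were 5.92 (saline replicate 5), 6.20 (saline replicate 4), 6.22 (chronic replicate 8) and 6.28 (saline replicate 3), a span of 0.36. Sostdc1 was 0.79, -0.53, 0.71 and -1.29 on the same arrays, a span of 2.08. Aqp1 was 0.39, -0.38, 0.59 and -0.73, and Kcne2 was -0.66, -1.61, -0.54 and -1.58. Saline replicate 5 and chronic replicate 8 were thus above saline replicates 3 and 4 in all 3 genes, at similar Ttr. No Ttr spot carried the scanner's saturation flag on any array. Whether the Ttr signal was compressed at the top in another way was not tested.

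**Figure D4:**
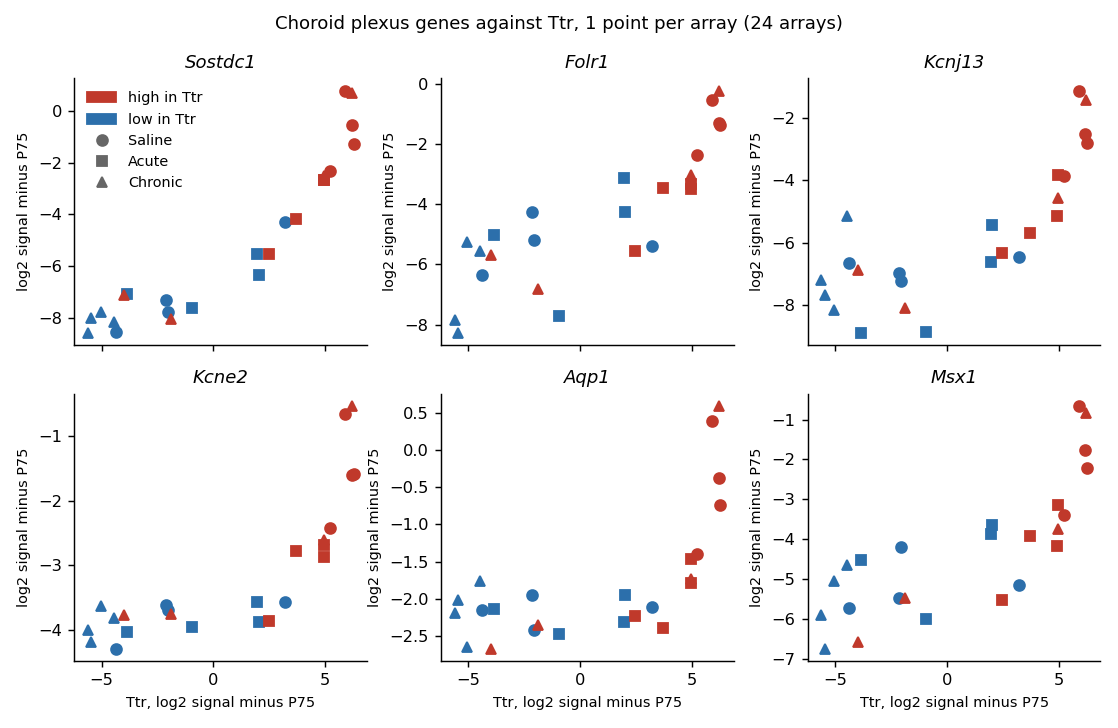
Values of 6 choroid plexus genes (vertical axes) against Ttr (horizontal axes), both as log2 signal minus P75, with 1 point per array, colour for the side and shape for the treatment group. Kcne2 and Aqp1 are nearly flat below a Ttr of about 3 and climb above 4, and the 4 arrays near 6 spread over 1.07 in Kcne2 and 1.32 in Aqp1.

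As a description over the 24 arrays, with values centred within treatment group, the 10 named genes whose profile was most like that of Ttr were Sostdc1 (Pearson's r = 0.94), Prr32 (0.87), Kcne2 (0.87), Kcnj13 (0.86), Cnmd (0.84), Folr1 (0.83), Csrp2 (0.82), Msx1 (0.79), Cab39l (0.78) and Epn3 (0.77). The points share arrays and scaling factors. The median r over all genes was -0.10.

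In the comparison of sides, the genes with the smallest p in the higher direction included several that no choroid plexus list held. Prr32 ran over -7.31, -5.10 and -2.01 on the high and -9.46, -8.03 and -6.24 on the low arrays, a difference of 3.05 ± 0.52 (SE; adjusted p = 0.115, limma). It was well above background on 9 high arrays and 1 low array. With low arrays raised as for Sostdc1 the fold was 3.14 (1.65 on the log2 scale), and the difference after normexp was 1.19. Cnmd ran over -8.54, -5.63 and -0.86 on the high and -9.49, -8.24 and -6.98 on the low arrays, with 10 high arrays above every low array. Cnmd was not well above background on any low array, so its level there is not measured (fitted adjusted p = 0.130, limma). With low arrays raised in the same way the fold was 3.28 (1.71 on the log2 scale), and the difference after normexp was 1.48. That fold sets the mean of the high arrays against the dimmest signal well above background on each low array.

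Igfbp5, a binding protein of insulin-like growth factors, differed by 0.95 ± 0.18 (SE), Lgi3, a secreted leucine-rich repeat protein, by 0.46 ± 0.10 (SE) and Spsb1, a ubiquitin ligase adaptor, by 0.36 ± 0.08 (SE), each with an adjusted p of 0.130. Epn3 differed by 0.96 (adjusted p = 0.133; 0.36 with another probe) and Mylk3, a myosin light chain kinase, by 0.99 (adjusted p = 0.178). Pvalb, the calcium-binding protein of fast-spiking interneurons, ran over 0.92, 1.40 and 2.44 on the high and -0.61, 0.62 and 1.36 on the low arrays, a difference of 0.89 ± 0.21 (SE; adjusted p = 0.227). Cryab, a small heat shock protein also abundant in oligodendrocytes, differed by 0.52 (adjusted p = 0.241).

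Differences in the lower direction were smaller in size. Lnx2, a ubiquitin ligase, ran over -2.03, -1.73 and -1.64 on the high and -1.75, -1.51 and -1.34 on the low arrays. Its sides did not overlap in 2 of the 3 groups, and its difference was -0.24 ± 0.05 (SE; adjusted p = 0.128, limma). Casz1, a zinc finger transcription factor, differed by -0.61 (adjusted p = 0.130), Pkia, an inhibitor of protein kinase A, by -0.23 (adjusted p = 0.178), Qsox2, a sulfhydryl oxidase, by -0.25 (adjusted p = 0.200) and Themis2 by -0.70 (adjusted p = 0.203). The other 10 named for their small p had an adjusted p of 0.248 each. They were Prkce (protein kinase C epsilon, -0.64), Asb13 (-0.59), Zfp791 (-0.55), Nbeal1 (-0.49), Morc3 (-0.42), Celf5 (an RNA-binding protein, -0.40), Clip4 (-0.37), Mapkbp1 (-0.35), Slitrk4 (a synaptic adhesion protein, -0.35) and Zfp709l1 (-0.33).

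Oligodendrocyte genes were the other list with many members at a small p. Of 15, 12 were higher on the high arrays, 9 of them at an unadjusted p under 0.05 (3.61% of all genes) and none lower, with a median difference of 0.31. None passed the adjusted threshold, and 6 of the 15 did with array weights, where 343 of 20897 genes were called higher. Cldn11, the tight junction protein of myelin, ran over 3.04, 3.61 and 4.03 on the high and 2.61, 2.92 and 3.50 on the low arrays, a difference of 0.55 ± 0.14 (SE; adjusted p = 0.248, limma), and another of its probes gave 0.13. Myrf, a transcription factor of myelination, ran over 2.03, 2.34 and 2.75 on the high and 1.71, 2.07 and 2.31 on the low arrays, a difference of 0.35 ± 0.09 (SE; adjusted p = 0.248). Ugt8, Mobp, Mog and Mag, which make or belong to myelin, differed by 0.49, 0.43, 0.41 and 0.31 (adjusted p = 0.310, 0.310, 0.310 and 0.313). Mbp, the myelin basic protein, had a difference of -0.18 ± 0.10 (SE; adjusted p = 0.454), and another Mbp probe had 0.10. The list's median was 0.25 in the saline, 0.23 in the acute and 0.40 in the chronic group, 0.27 without saline replicates 4 and 5 and chronic replicate 8, and 0.12, 0.42 and -0.17 on slides 1, 2 and 3 alone.

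Striatal projection neuron genes lay the other way. All 24 tested had a negative difference, 1 of them at an unadjusted p under 0.05, with a median of -0.24, where 37.8% of all genes had a positive difference. Meis2, a homeodomain factor, differed by -0.35 ± 0.12 (SE; adjusted p = 0.322), Ppp1r1b by -0.39 ± 0.20 (SE; adjusted p = 0.449) and Foxp1, a forkhead factor, by -0.32 (adjusted p = 0.435). The dopamine receptors Drd1 and Drd2 differed by -0.11 and -0.20 (adjusted p = 0.744 and 0.597) and the enkephalin precursor Penk by -0.27 (adjusted p = 0.475). Saline replicate 4 stood apart in this list. Its mean over the list was 0.55, the lowest of all arrays, where the medians were 1.71 on the high and 1.88 on the low side, and without it the median difference was -0.13. The median was -0.57 in the saline, -0.17 in the acute and 0.10 in the chronic group, and 0.31 on slide 3 alone. Of the striatal interneuron genes, 9 of 13 had a negative difference, with a median of -0.14 and Pvalb as the exception given above.

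Genes of neighbouring regions moved with single arrays. Of 11 cortex genes 10 had a negative difference, with a median of -0.27, and none had an unadjusted p under 0.05. Slc17a7, which loads glutamate into vesicles in cortical excitatory neurons, ran over -8.50, -3.56 and -2.73 on the high and -5.25, -3.74 and -2.53 on the low arrays, a difference of -0.55 ± 0.60 (SE; adjusted p = 0.691). The medians of the sides were thus close, and the lowest value, on chronic replicate 8, was far from the rest. Without saline replicates 4 and 5 and chronic replicate 8 the cortex list had a median of 0.51, the opposite sign. Over 12 hypothalamus genes the median was 0.15, and -0.09 without saline replicate 4. Avp, the vasopressin precursor, ran over -5.50, -4.94 and 2.60 on the high and -5.17, -4.68 and -3.84 on the low arrays (difference 0.82, adjusted p = 0.597), and Oxt and Pmch, which encode oxytocin and melanin-concentrating hormone, differed by 0.28 and 0.21 (adjusted p = 0.730 and 0.879). Of 14 genes of thalamus, septum and pallidum 10 were higher, with a median of 0.15, which was 0.08 without saline replicate 4 and -0.06 without all 3 of these arrays.

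Motile cilia genes, which mark the ependymal lining of the ventricle, were higher for 13 of 17, with a median of 0.37 and 1 in each direction at an unadjusted p under 0.05. The median was 1.35 in the saline, -0.24 in the acute and 0.12 in the chronic group, and 0.05 without saline replicates 4 and 5 and chronic replicate 8. Tmem212 differed by 1.50 ± 0.90 (SE; adjusted p = 0.492) and Iqcg by 0.98 (adjusted p = 0.410). Foxj1, the master factor of motile cilia, had a difference of -0.31 (adjusted p = 0.439), and another of its probes had 0.95.

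Vessels, blood and stroma, which also make up choroid plexus, had no gene at an adjusted p under 0.05. Of 15 endothelial genes 10 were higher, with a median of 0.04. Plvap, a protein of fenestrated vessels such as those of the choroid plexus, differed by 0.78 ± 0.23 (SE; adjusted p = 0.310). All 8 blood genes were higher, none at an unadjusted p under 0.05, with a median of 0.16. With slide as a block the blood median was -0.03, and on slides 1, 2 and 3 alone it was -0.30, -0.24 and -0.08. The medians were -0.02 for 16 meningeal and stromal genes, -0.13 for 10 mural cell genes, and -0.06 for 12 genes of microglia and border macrophages. Astrocyte genes had a median of 0.06, and Gfap, the astrocyte filament protein, differed by 0.36 (adjusted p = 0.448).

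The handling of the ligands that Ttr carries was read from 22 genes of thyroid hormone and retinoid transport, metabolism and reception. Of these 6 were higher and 16 lower, 2 higher at an unadjusted p under 0.05, with a median of -0.04, close to that of all genes. Aldh1a1, which makes retinoic acid, differed by 0.34 (adjusted p = 0.322). Medians were 0.04 for subventricular zone genes, 0.06 for ribosomal protein genes, 0.00 for immediate early genes and 0.00 for heat shock genes, and Fos differed by 0.15 (adjusted p = 0.791).

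**Figure D5:**
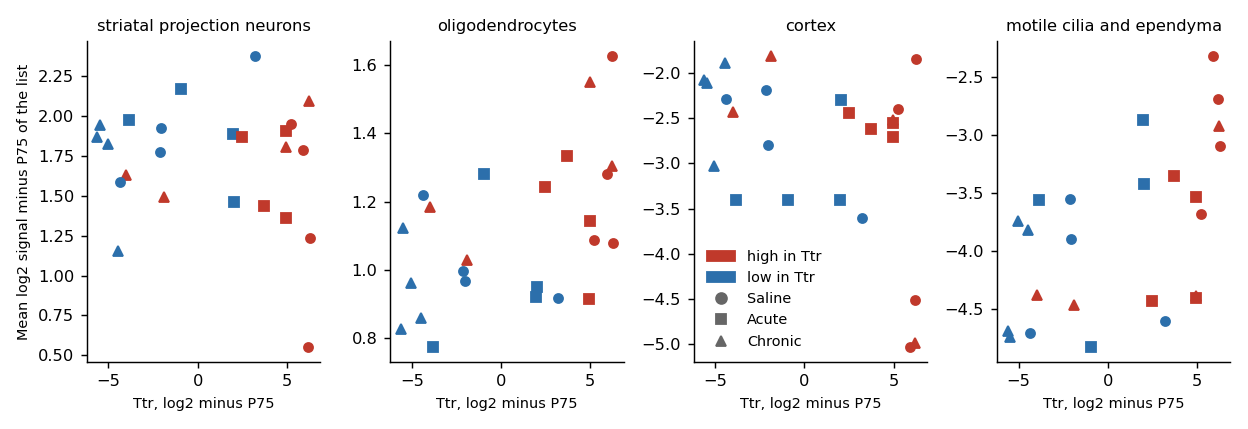
Mean log2 signal minus P75 over the tested genes of 4 lists (vertical axes) against Ttr (horizontal axes), 1 point per array, with colour for the side and shape for the treatment group. Saline replicate 4 is lowest for projection neurons (0.55) and highest for oligodendrocytes (1.63), and the 3 arrays lowest in cortex genes all have Ttr near 6.

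The difference between sides was set against treatment in a model with an interaction. No gene had a high minus low difference that differed between treatment groups at an adjusted p under 0.05 (0%, smallest adjusted p = 0.404, limma). At an unadjusted p under 0.05, 1083 of 20897 genes did, about the 1 in 20 that chance gives. Comparing the treatment groups with the side as a term gave no gene at an adjusted p under 0.05 either. Acute against saline gave 314 genes at an unadjusted p under 0.05, chronic against saline 526 and chronic against acute 574. Without the side term the counts were 298, 483 and 533, again with none at an adjusted p under 0.05. All these treatment counts, out of 20897 genes, lie under the 1 in 20 that chance gives. The median residual SD was 0.273 with the side term and 0.279 without it.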

How the data were processed

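Each of the 24 arrays came as a scanner table. Agilent Feature Extraction (10.7 per the submitters' processing notes) wrote the processed signal, a background-subtracted and detrended intensity with no scaling between arrays, per the file headers. A deposited value table of log2 values, used as an alternative, tracked each array's scanner values with a rank correlation of 1; its normalization is not given in the sources used here. Its column medians ran from 7.23 to 7.24.

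Control spots and spots flagged as uneven or outlying were left out, and the remaining spots of a probe were averaged as log2 intensity minus the array's 75th percentile. Of 45598 probes, 26259 were well above background in at least 0.5 of a group's arrays and were kept. Probes were named by accession (14743), symbol (3558) or synonym (260) through RefSeq, and 7698 kept the file's name. The brightest probe stood for a gene (20898 genes, 4186 with more than 1 probe, 13193 with a symbol). limma 3.58.1 in R 4.3.3 fitted group plus side, or group plus Ttr, and p-values were adjusted over all genes but Ttr by Benjamini-Hochberg. Scripts were tested on simulated data.

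The members and gene lists were chosen with earlier results of these data known. Named genes carry a symbol. They are the 15 of lowest p among the higher and among the lower genes, list examples (up to 6, smallest p first, with defining markers), the 10 most correlated with Ttr, and 15 named whatever their values. Genes called in the fit on Ttr but outside this rule, Rbp4 and the dim genes of the lists were named after their values were seen. The alternatives varied normalization, background correction, filter, probe choice, spot flags, letter, slide, split, covariate, moderation, weights and arrays left out.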

Additional observations from a re-analysis of the deposited data

Results flagged for a closer look

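Of 243 sets of 8 arrays tested, 25 (10.3%) had a highest or lowest array whose gap to the nearest of the others was, as a share of the group's range, above Dixon's critical value. Chance gives about 1 in 20 for sets chosen without sight of the values. Many of these genes were named for a small p or their correlation with Ttr, and the sets share arrays. The share flagged is therefore no test against chance. Chronic replicate 8, with a Ttr of 6.22, stood apart in its group for 10 genes. It was highest for the choroid plexus genes Kcne2 (-0.538, the next array at -2.61), Aqp1 (0.589, next -1.73), Trpv4 (-2.26, next -4.83), Col8a1 (-3.67, next -5.52), Steap1 (-2.75, next -5.23), Krt18 (-1.59, next -4.08) and Otx2 (-2.47, next -5.21). It was also highest for Nt5dc2 (-0.224, next -1.60) and Cox8b (-1.17, next -3.65), and lowest for the cortical transporter Slc17a7 (-8.50, next -4.23).

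Saline replicate 4, with a Ttr of 6.20, stood apart for 5 genes. It was highest for the hypothalamic peptide genes Avp (2.60, next -3.21), Oxt (1.99, next -1.77) and Pmch (0.863, next -4.83) and for the myelin gene Mag (3.48, next 3.07), and lowest for Ppp1r1b (3.10, next 4.29). Acute replicate 8 was highest in its group for Avp (-0.617, next -3.79) and Pmch (-4.13, next -5.00).

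The other flags fell on single values. Calml4 was lowest on acute replicate 1 (-8.29, next -5.74), Csrp2 on acute replicate 3 (-1.03, next -0.73) and Cox8b on acute replicate 4 (-4.65, next -4.18). Pkia was lowest on chronic replicate 7 (-0.0152, next 0.282) and Drd2 on chronic replicate 4 (2.44, next 3.03). Among the array measures, chronic replicate 5 had the lowest share of spots well above background in its group (54.8%, next 62.5%) and the highest signal of the E1A control probe (3.51, next 3.03), and chronic replicate 1 had the highest signal over background (10.4, next 9.11). Causes were not tested.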

How the results depend on the processing

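The fit on sides called no gene, and other settings called few except array weights. Counts below are genes higher and lower at an adjusted p under 0.05, then choroid plexus genes higher. They were 343, 676 and 9 with array weights, 20, 5 and 9 with Ttr as a continuous value, 13, 3 and 5 with that and slide as a block, 9, 3 and 4 with Slc17a7 as a covariate, 6, 0 and 2 with the 12 highest of all 24 arrays as the high side, 3, 0 and 1 with the letter as a random block, 2, 1 and 1 with each probe tested alone, 2, 0 and 0 without saline replicates 4 and 5 and chronic replicate 8, and 1, 0 and 0 with the slope over lettered arrays. Slide 3 alone called 1 lower gene. Leaving out each array in turn gave 0 to 6 higher (6 without chronic replicate 6, 4 without chronic replicate 5), 0 to 2 lower and 0 to 1 choroid plexus genes.

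The fit on Ttr as a continuous value (added after the data were seen in its combinations with slide and left-out arrays) moved from 20 rising, 5 falling and 9 choroid plexus genes to 13, 3 and 5 with slide as a block and to 8, 1 and 3 without the same 3 arrays. Leaving out each array gave 10 to 32 rising (10 without chronic replicate 8, 12 without chronic replicate 3, 13 without chronic replicate 2 or saline replicates 4 or 8, 32 without acute replicate 3), 0 to 22 falling (0 without chronic replicates 2, 3 or 8 or saline replicates 5 or 8, 20 without chronic replicate 1, 22 without acute replicate 3) and 4 to 14 choroid plexus genes.

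Of the 73 named genes, 48 kept their sign under each of the settings run. Slide 3 alone compares 1 saline array with 1, and there signs reversed for Col9a3 (-0.0502), Lgi3 (-0.121), Themis2 (0.392), Mapkbp1 (0.0193), Myrf (-0.0158), Cldn11 (-0.225), Mog (-0.178), Mobp (-0.0737), Mag (-0.0101), Meis2 (0.043), Slc17a7 (0.30), Ppp1r1b (0.466), Drd1 (0.308), Drd2 (0.302), Penk (0.628), Avp (-0.457), Pmch (-1.5) and Rbp4 (0.235). They reversed on slide 1 alone (1 saline array against 2) for Ugt8 (-0.0732), Slc17a7 (1.75), Avp (-0.906), Pmch (-0.779), Foxj1 (0.0885) and Fos (-0.321), and on slide 2 alone for Tmem212 (-0.76) and Drd1 (0.153). Over lettered arrays Nbeal1 (0.0021), Drd1 (0.0487), Oxt (-0.0214) and Rbp4 (0.0538) reversed, and with continuous Ttr Drd1 (0.000378) and Rbp4 (0.000552). Without the 3 arrays Slc17a7 (0.506), Oxt (-0.0542) and Pmch (-0.402) reversed, with another probe Mapkbp1 (0.0512), Mbp (0.102) and Foxj1 (0.953), and with slide as a block Fos (-0.0927). Leaving out 1 array, Oxt ranged from -0.0709 to 0.356 and Pmch from -0.331 to 0.388. Against continuous Ttr, the correlation within groups was -0.0782 for P75, -0.0193 for signal over background and -0.162 for E1A, which turned from the sign of the difference, and was -0.513 for the ERCC control probes and -0.30 for median background. No setting called a gene for the interaction or a treatment comparison. Causes were not tested. Values of genes not well above background on most low arrays are limited by signal over background there, and the number of arrays limits precision. Replicate numbers follow accession order and pair no arrays. Treatment group was the block in the main fits, and the title letter was a block in alternative settings only. The main p-values therefore take no account of arrays that share a letter.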
